A study of Mus musculus with 12 samples.

Results

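Zfp263, Klf10, Msantd4, As3mt, Maoa, Slc15a2, Anxa1, Sh3bgrl, Hydin and Ushbp1 are 10 of the 35976 genes in a count table of 12 mouse embryonic stem cell libraries. They were chosen by their levels, each lower in both preparations of cells labelled N1300T (49 and 81) than in the Tet1KO and DKO cells of the series. Those levels and fold changes are given here as a description, with no test. All 10 were found by symbol and all passed the filter on low counts, among 16014 genes tested.

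The libraries came from V6.5 cells, a mouse embryonic stem cell line, kept on gelatin in serum medium with LIF, the GSK3 inhibitor CHIR99021 and the MEK inhibitor PD0325901, with no treatment. The groups were N1300T 49 and N1300T 81 (Tet1 knockout with the Tet2 allele N1300T), DKO (knockout of both Tet1 and Tet2, numbered 41) and Tet1KO (Tet1 knockout, called wild type for Tet2 in the series' design text), with 3 libraries each, lettered A, B and C. The study asked what expression of the mutant Tet2 does to the transcriptome, and all 4 groups carry the Tet1 knockout label, so cells with intact Tet1 were not compared. The meaning of the numbers 41, 49 and 81 is not stated in the labels. Nothing says that the letters were separate cultures, so p-values measure only the spread between these libraries. With 1 set of libraries for DKO and 1 for Tet1KO, genotype and other properties of those cells cannot be told apart.

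TET enzymes oxidise 5-methylcytosine in DNA, a step towards removing methylation at promoters and enhancers. Serum medium with LIF and both inhibitors holds embryonic stem cells in an undifferentiated state. The genes described here share no single pathway. Zfp263, Klf10 and Msantd4 encode DNA-binding proteins, As3mt and Maoa encode enzymes that act on small molecules, Slc15a2 encodes a peptide transporter, Anxa1 a membrane-binding protein, Sh3bgrl a small thioredoxin-fold protein, Hydin a part of motile cilia and Ushbp1 a partner of the Usher protein harmonin.

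Total counts per library were 31515011 to 57054862. In every group the 10 markers of embryonic stem cells, such as Pou5f1 and Nanog, were counted and summed to between 7062 and 8153 CPM (counts relative to the library total, scaled by TMM factors). The 8 fibroblast markers summed to 9.38 to 11.5 CPM in N1300T, 10.8 to 12.7 CPM in DKO and 7.57 to 8.06 CPM in Tet1KO. The 6 primitive endoderm markers summed to 9.73 to 10.9 CPM in N1300T 49 and 6.82 to 7.19 CPM in N1300T 81. In DKO they summed to 7.38 to 8.58 CPM and in Tet1KO to 4.3 to 4.9 CPM. The 7 trophoblast markers include keratins that embryonic stem cells also express. They summed to 130.4 to 140.5 CPM in N1300T 49, 145 to 155 CPM in N1300T 81, 168 to 175 CPM in DKO and 144 to 149.6 CPM in Tet1KO. The part of these cells in the results was not tested. Tet1 was counted in every group, at 161 ± 15.4 CPM in N1300T (SD, n = 6), 174 ± 6.19 CPM in DKO and 153 ± 21.2 CPM in Tet1KO (n = 3 each), so whole-gene counts do not check its knockout label. Tet2 stood at 138 ± 11.4 CPM in N1300T (SD, n = 6), 94.5 ± 3.05 CPM in DKO and 160.4 ± 19.3 CPM in Tet1KO (n = 3 each).

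RefSeq's promoter table of GRCm38.p6 (mm10) held 9 of the 10 genes, and Klf10 had no entry in it. Because TET enzymes act on methylated CG dinucleotides, the 250 bases before the 1 start that this table gives for each gene were searched for CG. That start can lie inside the gene's whole span, so the window of As3mt lies within the span and those of Slc15a2, Ushbp1 and Hydin overlap theirs. Zfp263 and Maoa, which hold 14 and 11 CG, Sh3bgrl with 7 and Anxa1 with 2, the fewest of the 9, are printed to show the range, with CG in capitals. Zfp263 lies on the plus strand at chr16:3743849-3744098, Maoa on the plus strand at chrX:16619448-16619697, Sh3bgrl on the plus strand at chrX:109095157-109095406 and Anxa1 on the minus strand at chr19:20390672-20390921, each written 5′ to 3′ along its gene.
Zfp263: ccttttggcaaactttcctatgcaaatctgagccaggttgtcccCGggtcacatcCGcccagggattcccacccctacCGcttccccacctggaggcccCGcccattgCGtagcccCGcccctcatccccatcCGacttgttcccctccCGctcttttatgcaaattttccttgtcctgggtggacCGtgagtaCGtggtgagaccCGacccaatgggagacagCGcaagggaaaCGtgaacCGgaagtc
Maoa: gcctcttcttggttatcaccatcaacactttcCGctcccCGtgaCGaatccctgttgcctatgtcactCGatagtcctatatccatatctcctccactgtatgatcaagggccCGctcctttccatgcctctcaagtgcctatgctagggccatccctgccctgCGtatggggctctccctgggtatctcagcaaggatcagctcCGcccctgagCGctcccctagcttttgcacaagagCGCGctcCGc
Sh3bgrl: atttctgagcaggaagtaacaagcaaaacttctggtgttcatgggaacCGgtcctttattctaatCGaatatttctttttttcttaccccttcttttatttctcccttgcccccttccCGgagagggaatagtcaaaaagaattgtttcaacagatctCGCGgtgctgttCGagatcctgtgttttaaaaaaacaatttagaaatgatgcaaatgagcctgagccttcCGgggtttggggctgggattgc
Anxa1: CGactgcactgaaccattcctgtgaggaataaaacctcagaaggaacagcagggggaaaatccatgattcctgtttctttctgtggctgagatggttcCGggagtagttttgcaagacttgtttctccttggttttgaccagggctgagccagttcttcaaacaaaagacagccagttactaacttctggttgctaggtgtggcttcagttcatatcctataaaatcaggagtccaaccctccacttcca

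The other windows held 12 CG in Msantd4, 9 in Hydin, 7 in Ushbp1, 4 in Slc15a2 and 4 in As3mt. The median of the 9 was 7 CG, and over the promoters of 11707 tested genes it was 15, with quartiles of 8 and 22. All 9 lay under that median, with 44.4% of tested promoters holding fewer CG than Zfp263 and 3.5% fewer than Anxa1. GC content had a median of 53.6% in the 9 and 59.6% over tested genes. Motifs were searched on both strands. GGGCGG was found in 3 of the 9 windows (Zfp263, Maoa and Slc15a2) and in 57.5% of tested promoters. CCAAT was found in 4 (Zfp263, Hydin, As3mt and Msantd4) and in 36.2%, TATAAA in Anxa1 alone and in 6.52%, and CACGTG in Msantd4 alone and in 8.3%. These matches are letters in a window and were not tested as binding sites, and no methylation was measured.

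In all 10 genes, every N1300T library stood below every DKO and Tet1KO library, which the choice of genes set. Of all tested genes, 1.31% had all 6 N1300T libraries below the 6 others. By edgeR's quasi-likelihood test, 5.70% and 5.90% of tested genes were called lower in N1300T 49 and 81 against Tet1KO, and 0.999% and 1.33% against DKO. Called lower in all 4 at once were 27 genes (0.169%). The choice of genes drew on these comparisons, so nothing is read from the calls of the 10 in them. The N1300T mean was between 0.196% and 65.1% of the Tet1KO mean and between 2.42% and 70.4% of the DKO mean, with Zfp263 at the low end and Klf10 at the high end of both. The smallest gap was in Ushbp1, whose highest N1300T library had 5.17 CPM and whose lowest other library had 5.4 CPM. In bulk RNA, fewer cells with a transcript and less of it per cell cannot be told apart.

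**Figure D1:**
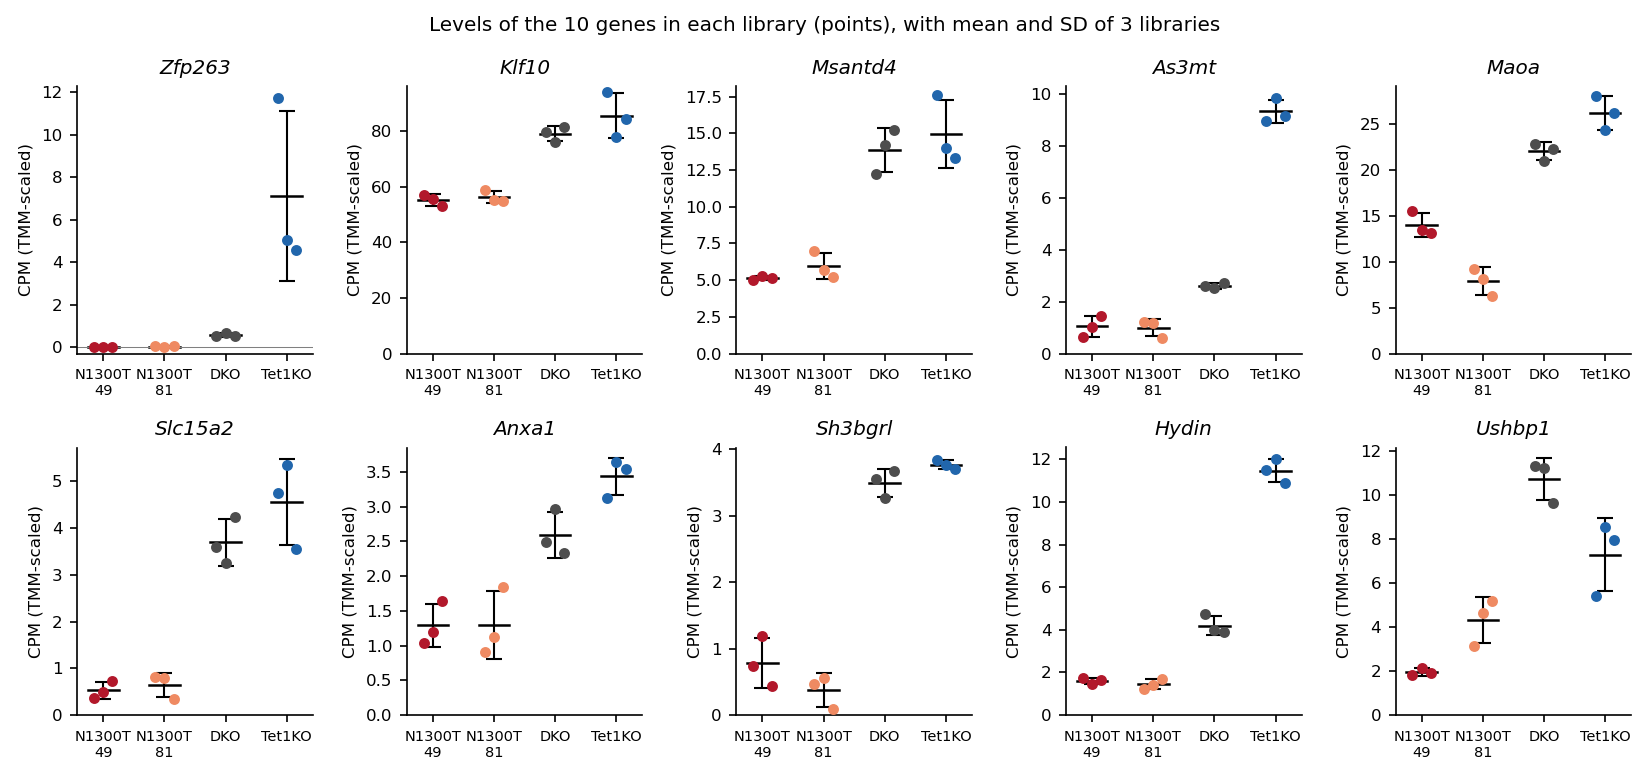
Level of each gene in CPM scaled by TMM factors (linear axis) in each library (points), with the mean and SD of 3 libraries (bars), for N1300T 49, N1300T 81, DKO and Tet1KO. All 6 N1300T libraries lie below the other 6 in each panel, and the gap between the highest N1300T library and the lowest other library is narrowest in Ushbp1 (5.17 and 5.4 CPM).

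Zfp263 (chromosome 16, 3744099 to 3750790) encodes a zinc finger protein with a SCAN domain, a motif through which such factors pair. Zfp263 had 0, 0 and 0 counts in N1300T 49 A, B and C and 2, 0 and 2 counts in N1300T 81. Zfp263 counts were 30, 28 and 30 in DKO and 377, 211 and 193 in Tet1KO. The transcript was thus nearly absent from N1300T, low and even in DKO, and highest in Tet1KO, where library A had more than B and C. As levels this was 0.0139 ± 0.0216 CPM in N1300T (SD, n = 6), 0.574 ± 0.0927 CPM in DKO and 7.11 ± 3.98 CPM in Tet1KO (n = 3 each). As a ratio of counts pooled over each group's libraries, each set against its summed TMM-scaled library size, Tet1KO was 449 times N1300T, with a 95% interval of 175 to 1650, and DKO 37.6 times, with an interval of 14.2 to 141. These differ from the ratios of the mean CPM, in which each library has equal weight. These exact intervals cover counting error only. N1300T 49 alone, set at a floor of 3 counts over its 3 libraries, was 264-fold lower than Tet1KO and 22.1-fold lower than DKO. If both mates of a fragment were counted, as even counts hint, that floor is too low and these folds and intervals overstate what the counts can bound. The spread between the Tet1KO libraries is not in these folds either. Between DKO and Tet1KO, the log2 fold change was -3.63 ± 0.36 (SE, edgeR adjusted p 9.82e-06), and all 3 DKO libraries were lower.

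Few of the listed SCAN-domain relatives of Zfp263 were called. Of 27 tested, 2 were called higher and 0 lower in N1300T against Tet1KO, where 7.69% of all tested genes were called higher and 8.04% lower. Against DKO it was 0 in either direction, where 2.02% were called lower and 1.70% higher. Zscan10, a factor of pluripotent cells, stood at 208 ± 14.8 CPM in N1300T, 211 ± 5.25 CPM in DKO and 177 ± 14 CPM in Tet1KO, and its log2 fold change in N1300T against Tet1KO was 0.23 ± 0.06 (adjusted p 0.0168). Zscan25 was the other, at 0.24 ± 0.07 (adjusted p 0.0303). Zscan10 lost its call without Tet1KO A, and Zscan25 without N1300T 49 C, 81 A or any Tet1KO library. Against DKO, 1 relative was called lower without N1300T 81 C, and also when the fit held the letters A, B and C as a replicate block.

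Klf10 (chromosome 15, 38291464 to 38300711) encodes a Krüppel-like repressor that TGF-beta induces early. Klf10 stood at 57, 55.4 and 52.9 CPM in N1300T 49 A, B and C and at 58.6, 55.2 and 54.7 CPM in N1300T 81. Klf10 levels were 79.8, 76.1 and 81.3 CPM in DKO and 94.1, 78 and 84.3 CPM in Tet1KO. It differed least of the 10 from the other genotypes, at 70.4% of the DKO mean and 65.1% of the Tet1KO mean, and the preparations overlapped. Log2 fold changes were -0.51 ± 0.06 in N1300T against DKO and -0.62 ± 0.06 against Tet1KO. DKO and Tet1KO overlapped (-0.11 ± 0.07, adjusted p 0.296), as did N1300T 49 and 81 (-0.03 ± 0.07, adjusted p 0.962).

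Among 15 other tested KLF genes, 3 were called lower (Klf3, Klf6 and Klf15) and 1 higher (Klf9) in N1300T against Tet1KO, of which Klf6 and Klf9 are named after their values were seen. The shares over all tested genes were 8.04% lower and 7.69% higher. Klf15 fell to 7.56 ± 1.23 CPM in N1300T, against 10.5 ± 1.55 CPM in Tet1KO (log2 fold change -0.49 ± 0.13, adjusted p 0.0154). The lower count was 1 without Tet1KO B or C, and Klf9, at 0.14 ± 0.04 (adjusted p 0.0424), lost its call with no filter and without any 1 library other than N1300T 49 C, 81 C or Tet1KO B. Klf3 (-0.19 ± 0.05, adjusted p 0.0179) lost its call without Tet1KO B or C, Klf6 (-0.20 ± 0.06, adjusted p 0.0373) without any Tet1KO library, DKO A, DKO B, N1300T 49 A or 81 C, and Klf15 without Tet1KO C. Against DKO, 1 was called lower, beside 2.02% of all tested genes. That was Klf12, at 22 ± 1.34 CPM in N1300T and 28.2 ± 0.722 CPM in DKO (-0.36 ± 0.06, adjusted p 0.00268). Tet1KO had 21.6 ± 1.03 CPM, near N1300T (0.02 ± 0.06, adjusted p 0.876), and DKO was higher than Tet1KO (0.38 ± 0.07, adjusted p 0.00125). The count lower against DKO was 3 without N1300T 49 C, by DESeq2 and with the replicate block, and 2 with library size alone or no filter. Klf11, the closest relative of Klf10, gave -0.07 ± 0.07 against DKO and -0.16 ± 0.08 against Tet1KO (adjusted p 0.659 and 0.173).

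Of 19 tested genes in the TGF-beta early response list, 3 were called lower and 1 higher in N1300T against Tet1KO, and 2 lower and 0 higher against DKO. Over all tested genes, 8.04% were called lower and 7.69% higher against Tet1KO, and 2.02% and 1.70% against DKO. Tgif1, a homeobox repressor of SMAD-driven transcription, stood at 135 ± 4.98 CPM in N1300T, 158 ± 4.12 CPM in DKO and 163 ± 11.8 CPM in Tet1KO. Its log2 fold change was -0.22 ± 0.05 against DKO (adjusted p 0.0214) and -0.27 ± 0.05 against Tet1KO (adjusted p 0.00149). Id1, an inhibitor of basic helix-loop-helix factors, was spread widely within N1300T, with 18.7, 12 and 29.4 CPM in 49 A, B and C and 10.5, 8.32 and 22.3 CPM in 81. Id1 had 35.4, 38.3 and 30 CPM in DKO and 33.9, 19.2 and 39.8 CPM in Tet1KO, so N1300T overlapped Tet1KO. Its log2 fold change was -1.06 ± 0.27 against DKO (adjusted p 0.035) and -0.91 ± 0.27 against Tet1KO (adjusted p 0.0303). Neither Id1 call was made by DESeq2, and both were lost without N1300T 49 A, 49 B, 81 A, 81 B or Tet1KO A, with the call against Tet1KO also lost without Tet1KO C. Junb, the other gene called lower against Tet1KO (-0.30 ± 0.08, adjusted p 0.0163), lost its call without Tet1KO C. The higher count against DKO was 1 with no filter, the replicate block or DESeq2. Against DKO the lower count was 0 without any 1 of DKO A, B or C. It was 1 without N1300T 49 A, 49 B, 81 A, 81 B or Tet1KO A. It was 4 without N1300T 81 C or Tet1KO C, and 5 with no filter or the replicate block. Against Tet1KO it was 1 without Tet1KO C, and Bambi, the gene called higher and named after its values were seen (0.29 ± 0.10, adjusted p 0.0472), lost its call with no filter and without any 1 library other than N1300T 49 B.

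Msantd4 (chromosome 9, 4376552 to 4386890) encodes a protein with a Myb/SANT-like DNA-binding domain. Msantd4 stood at 4.99, 5.31 and 5.12 CPM in N1300T 49 A, B and C and at 6.99, 5.67 and 5.23 CPM in N1300T 81. Msantd4 levels were 12.2, 14.2 and 15.2 CPM in DKO and 17.6, 14 and 13.3 CPM in Tet1KO. N1300T was at 40.1% of DKO and 37.1% of Tet1KO, with DKO and Tet1KO mixed in their order. Their log2 fold change was -0.11 ± 0.13 (DKO against Tet1KO, adjusted p 0.619). The gene that shares this domain and was called, Msantd3, was higher, at 66.6 ± 3.02 CPM in N1300T, 61.2 ± 2.82 CPM in DKO and 50.9 ± 4.74 CPM in Tet1KO. Its log2 fold change was 0.39 ± 0.06 in N1300T against Tet1KO (adjusted p 0.000475).

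As3mt (chromosome 19, 46707157 to 46741099) encodes the arsenite methyltransferase, which passes methyl groups from S-adenosylmethionine to arsenic. As3mt stood at 0.651, 1.03 and 1.46 CPM in N1300T 49 A, B and C and at 1.22, 1.16 and 0.615 CPM in N1300T 81. As3mt levels were 2.6, 2.51 and 2.74 CPM in DKO and 8.99, 9.86 and 9.18 CPM in Tet1KO. The genotypes formed 3 steps with no overlap, N1300T lowest, DKO next and Tet1KO highest. The N1300T mean was 39.2% of the DKO mean and 11% of the Tet1KO mean. As3mt fell in DKO to 28% of Tet1KO (log2 fold change -1.84 ± 0.21, adjusted p 1.43e-05).

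The listed partners in arsenic methylation, thiol supply and methyl donation gave 1 lower and 1 higher of 12 tested in N1300T against Tet1KO. Of all tested genes, 8.04% were called lower there and 7.69% higher. Glrx, a glutaredoxin, fell to 3 ± 0.585 CPM in N1300T, against 11.3 ± 0.749 CPM in Tet1KO (-1.90 ± 0.13, adjusted p 4.30e-08). In DKO it had 3.66 ± 0.505 CPM, also lower than Tet1KO (-1.61 ± 0.16, adjusted p 4.37e-06), and N1300T against DKO was not called (-0.29 ± 0.14, adjusted p 0.263). Mat2b, the regulatory subunit of methionine adenosyltransferase, was higher in N1300T than in Tet1KO by 0.22 ± 0.05 (adjusted p 0.00447). The counts became 2 lower without N1300T 81 C, with no filter or with the replicate block, and 2 higher without Tet1KO C or with no filter. Against DKO, with 0 called in all libraries, 2 were lower and 1 higher without N1300T 49 C, 3 lower without 81 C and 1 lower without Tet1KO C. There no filter and the replicate block each gave 2 lower, library size alone 1 lower, and DESeq2 1 lower and 1 higher. Borcs7, which lies 3.77 kb from As3mt, stood at 2.96 CPM in N1300T, 2.83 CPM in DKO and 2.59 CPM in Tet1KO and was not called.

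Maoa (chromosome X, 16619698 to 16687812) encodes monoamine oxidase A, a mitochondrial outer membrane enzyme that breaks down serotonin and noradrenaline. Maoa stood at 15.5, 13.5 and 13.1 CPM in N1300T 49 A, B and C and at 9.26, 8.15 and 6.29 CPM in N1300T 81. Maoa levels were 22.9, 21 and 22.3 CPM in DKO and 28.1, 24.4 and 26.2 CPM in Tet1KO. The preparations did not overlap, and N1300T 49 lay above 81 and nearer to DKO. Maoa was higher in N1300T 49 than in 81 by 0.83 ± 0.12 on the log2 scale (adjusted p 0.00139). The difference of DKO from Tet1KO missed the threshold (-0.25 ± 0.11, adjusted p 0.144), although all 3 DKO libraries were lower. Maob, its paralog, was under the filter, with 47 counts in the 12 libraries. Of 11 tested genes of monoamine synthesis, transport and breakdown, 0 were called lower and 1 higher in N1300T against Tet1KO, beside 8.04% and 7.69% of all tested genes. That 1 was Aldh2, a mitochondrial aldehyde dehydrogenase (0.30 ± 0.06, adjusted p 0.00374). It was also higher in DKO than in Tet1KO (0.36 ± 0.07, adjusted p 0.00265), with 291 ± 21.1 CPM in N1300T, 304 ± 17.6 CPM in DKO and 237 ± 11.9 CPM in Tet1KO. Against Tet1KO, 1 of the list was called lower with no filter or DESeq2, and 2 higher with the replicate block. Against DKO, 1 was called higher and 0 lower, beside 1.70% and 2.02% of all tested genes. The gene was Qdpr (0.20 ± 0.05, adjusted p 0.0489). Qdpr lost its call in 11 of 18 settings, which were RLE factors, library size alone and leaving out DKO A or C, N1300T 49 A or B, 81 A or B, or any Tet1KO library.

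Slc15a2 (chromosome 16, 36750161 to 36785158) encodes PEPT2, a proton-coupled transporter of dipeptides and tripeptides. Slc15a2 stood at 0.366, 0.487 and 0.728 CPM in N1300T 49 A, B and C and at 0.809, 0.789 and 0.352 CPM in N1300T 81. Slc15a2 levels were 3.59, 3.26 and 4.24 CPM in DKO and 4.74, 5.36 and 3.56 CPM in Tet1KO. N1300T was far below both genotypes, at 15.9% of DKO and 12.9% of Tet1KO, and DKO and Tet1KO overlapped (-0.30 ± 0.23, adjusted p 0.428). Its 2 tested paralogs were not called in either N1300T comparison, where 15.7% (Tet1KO) and 3.73% (DKO) of all tested genes were called. Slc15a1, the intestinal form of the transporter, gave 0.21 ± 0.21 against DKO and -0.52 ± 0.21 against Tet1KO (adjusted p 0.639 and 0.103). Against Tet1KO 1 paralog was called lower without Tet1KO C, with no filter and with the replicate block. Slc15a4, a lysosomal member, gave 0.11 ± 0.08 and -0.00 ± 0.08 (adjusted p 0.502 and 0.996).

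Anxa1 (chromosome 19, 20373434 to 20390671) encodes a protein that binds phospholipid membranes in the presence of calcium and is known for its part in the resolution of inflammation. Anxa1 stood at 1.04, 1.19 and 1.64 CPM in N1300T 49 A, B and C and at 0.908, 1.13 and 1.85 CPM in N1300T 81. Anxa1 levels were 2.49, 2.97 and 2.33 CPM in DKO and 3.13, 3.64 and 3.54 CPM in Tet1KO. The margin was narrow, since N1300T 81 C at 1.85 CPM came close to DKO C at 2.33 CPM. Log2 fold changes were -1.02 ± 0.20 against DKO and -1.43 ± 0.20 against Tet1KO, and DKO against Tet1KO gave -0.41 ± 0.22 (adjusted p 0.233).

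Several other annexins and partners fell in N1300T against Tet1KO. Of 13 tested, 6 were called lower and 0 higher against Tet1KO, which is 46.2% of the list, where 8.04% of all tested genes were called lower and 7.69% higher. Without Tet1KO C the count was 3. Anxa5, which binds phosphatidylserine, fell to 6.52 ± 0.367 CPM in N1300T, against 10.5 ± 0.183 CPM in Tet1KO (-0.69 ± 0.09, adjusted p 3.42e-05). Anxa2, a partner of S100a10, fell to 6.73 ± 2.18 CPM in N1300T, against 10.5 ± 0.381 CPM in Tet1KO (-0.67 ± 0.17, adjusted p 0.0123). Pla2g4a, a cytosolic phospholipase, was low in every group and gave -1.82 ± 0.42 (adjusted p 0.00687), a call lost without Tet1KO C. Anxa8 and S100a10, named here after their values were seen, gave -0.42 ± 0.13 and -0.30 ± 0.08 (adjusted p 0.0404 and 0.0185). The Anxa8 call was lost without any 1 DKO library, N1300T 49 A, 49 B or 81 B, or Tet1KO A or C, and that of S100a10 without Tet1KO A or C.

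Anxa3 was the annexin called against both genotypes. Anxa3 had 1.38, 2.03 and 2.5 CPM in N1300T 49 A, B and C and 1.22, 1.35 and 2.42 CPM in N1300T 81. Anxa3 had 3.39, 3.67 and 4.3 CPM in DKO and 3.22, 3.85 and 5.89 CPM in Tet1KO. All N1300T libraries lay below the rest, with library C the highest in every group. Its log2 fold change was -1.08 ± 0.22 against DKO (adjusted p 0.0127) and -1.28 ± 0.23 against Tet1KO (adjusted p 0.000826). Against DKO it was the 1 lower call in the list of 13, where 2.02% of all tested genes were called lower. The count was 0 without DKO C and 2 without N1300T 49 C, 81 B or 81 C. It was 2 by DESeq2 or with the replicate block, and 3 with no filter. In DKO against Tet1KO the list had 1 lower call of 13, Anxa5 (-0.46 ± 0.10, adjusted p 0.00464). That is 7.69% of the list, near the 7.12% of all tested genes called lower there.

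**Figure D2:**
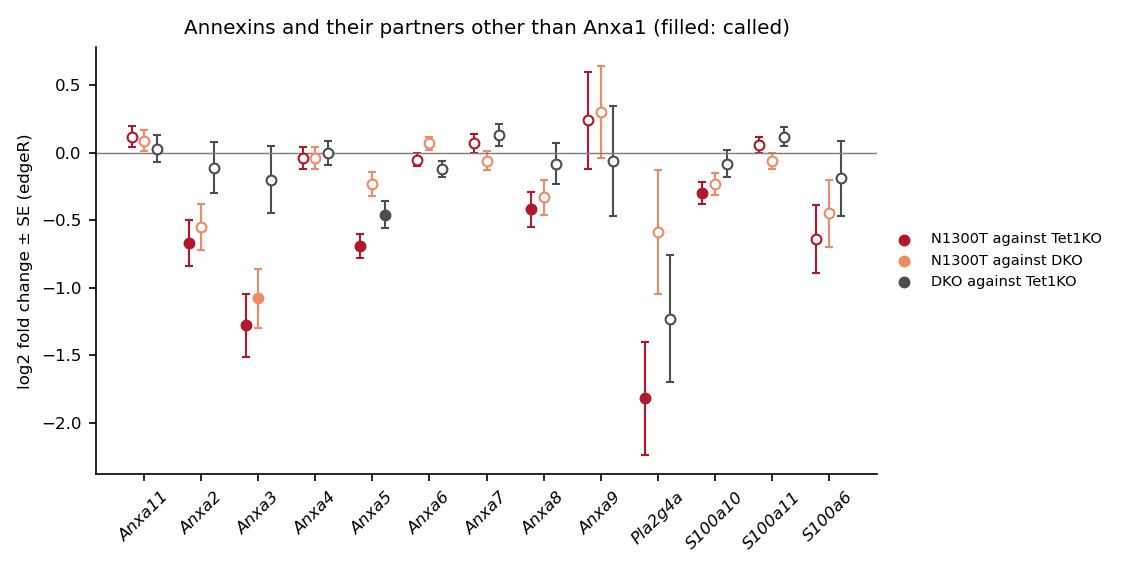
Log2 fold change (± SE, edgeR) of the 13 tested annexins and partners other than Anxa1 in N1300T against Tet1KO, N1300T against DKO and DKO against Tet1KO. Filled points have an adjusted p under 0.05, which are 6 of 13, 1 of 13 and 1 of 13, all below 0.

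Sh3bgrl (chromosome X, 109095407 to 109162467) encodes a small protein with a thioredoxin-like fold. Sh3bgrl stood at 0.733, 1.19 and 0.443 CPM in N1300T 49 A, B and C and at 0.474, 0.563 and 0.0879 CPM in N1300T 81. Sh3bgrl levels were 3.56, 3.26 and 3.67 CPM in DKO and 3.84, 3.76 and 3.7 CPM in Tet1KO. It was even in both other genotypes and uneven within N1300T, where 81 C held 4 counts. N1300T was at 16.7% of DKO and 15.4% of Tet1KO. N1300T 49 against 81 gave 1.05 ± 0.40 (adjusted p 0.572, but 0.0336 with no filter on low counts) and DKO against Tet1KO -0.11 ± 0.28 (adjusted p 0.846). The 3 tested family members gave 0 lower calls in either N1300T comparison, where 8.04% (Tet1KO) and 2.02% (DKO) of all tested genes were called lower. Sh3bgrl2 was higher in N1300T than in Tet1KO (0.27 ± 0.07, adjusted p 0.0156, not called without Tet1KO B), with 54.5 ± 3.61 CPM in N1300T, 64.2 ± 2.69 CPM in DKO and 45.2 ± 4.77 CPM in Tet1KO. Against DKO it gave -0.24 ± 0.07 (adjusted p 0.0669). There 1 of the family was called lower with library size alone, no filter, DESeq2 or the replicate block. The same count was found without N1300T 81 C or Tet1KO B. Sh3bgr and Sh3bgrl3 gave 0.54 ± 0.27 and 0.13 ± 0.06 against Tet1KO (adjusted p 0.198 and 0.151).

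Hydin (chromosome 8, 110266968 to 110610253) encodes a very large protein of the central apparatus of motile cilia, and its loss in mice causes hydrocephalus. Hydin stood at 1.73, 1.44 and 1.64 CPM in N1300T 49 A, B and C and at 1.24, 1.43 and 1.69 CPM in N1300T 81. Hydin levels were 4.73, 3.97 and 3.89 CPM in DKO and 11.5, 12 and 10.9 CPM in Tet1KO. The genotypes formed the same 3 steps as for As3mt, with N1300T at 36.4% of DKO and DKO at 36.6% of Tet1KO. Hydin fell in DKO against Tet1KO (-1.45 ± 0.13, adjusted p 2.15e-06), while N1300T 49 and 81 gave 0.15 ± 0.16 (adjusted p 0.893).

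Of 23 other tested genes of the central apparatus and motile cilia, 1 was called lower and 1 higher in N1300T against Tet1KO, and 0 against DKO. Over all tested genes it was 8.04% lower and 7.69% higher against Tet1KO, and 3.73% in either direction against DKO. Ak7, a ciliary adenylate kinase, fell to 4.85 ± 0.663 CPM in N1300T, against 12.1 ± 1.28 CPM in Tet1KO (-1.32 ± 0.11, adjusted p 2.64e-07). Rsph4a, a radial spoke head gene, was higher, at 3.92 ± 0.221 CPM in N1300T and 1.88 ± 0.4 CPM in Tet1KO (1.05 ± 0.15, adjusted p 0.00013). DKO was near N1300T for both, at 5.34 ± 0.438 CPM for Ak7 and 3.33 ± 0.415 CPM for Rsph4a. The higher count was 2 without N1300T 49 A or 81 B and 3 without 81 C or Tet1KO B. It was 3 with the replicate block and 4 with no filter. Foxj1, the master regulator of motile cilia, was chosen after its values were seen and was not called in N1300T (-0.37 ± 0.20 against DKO, adjusted p 0.318, and 0.61 ± 0.22 against Tet1KO, adjusted p 0.0739). It was higher in DKO than in Tet1KO (0.98 ± 0.25, adjusted p 0.0118), a call lost without DKO A or Tet1KO A.

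Ushbp1 (chromosome 8, 71384274 to 71395834) encodes a protein that binds harmonin, the product of Ush1c. Ushbp1 stood at 1.81, 2.14 and 1.9 CPM in N1300T 49 A, B and C and at 3.12, 4.64 and 5.17 CPM in N1300T 81. Ushbp1 levels were 11.3, 11.2 and 9.63 CPM in DKO and 5.4, 8.52 and 7.93 CPM in Tet1KO. Of the 10 genes it was the only 1 whose DKO mean lay above its Tet1KO mean, and its preparations did not overlap, with N1300T 49 below 81. Ushbp1 was higher in DKO than in Tet1KO (0.55 ± 0.17, adjusted p 0.0385), a call lost without DKO A, B or C or Tet1KO A (adjusted p 0.131, 0.108, 0.0581 and 0.191). Ushbp1 was lower in N1300T 49 than in 81 (-1.14 ± 0.20, adjusted p 0.0111), a call lost without N1300T 49 A, 49 C or 81 B (adjusted p 0.116, 0.0558 and 0.0507). Among 9 tested Usher genes and Mcc, 1 was called lower and 1 higher in N1300T against Tet1KO, and 0 against DKO. The shares over all tested genes were 8.04% lower and 7.69% higher against Tet1KO, and 3.73% in either direction against DKO. Adgrv1, a large adhesion receptor, fell against Tet1KO (-0.51 ± 0.10, adjusted p 0.0017). Pdzd7, a scaffold protein, rose to 2.23 ± 0.693 CPM in N1300T, against 0.818 ± 0.19 CPM in Tet1KO (1.41 ± 0.20, adjusted p 0.000121), and stood at 3.2 ± 0.359 CPM in DKO. The higher count was 2 without N1300T 81 B, with no filter and with the replicate block. Against DKO 1 was called lower without N1300T 81 B or Tet1KO B, by DESeq2, with library size alone and with halved counts. With no filter or the replicate block 2 were called lower against DKO. Mcc gave -0.26 ± 0.12 against DKO and 0.32 ± 0.13 against Tet1KO (adjusted p 0.242 and 0.101). In DKO against Tet1KO, Mcc was higher (0.58 ± 0.14, adjusted p 0.0111), a call lost without DKO C or Tet1KO B.

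DKO against Tet1KO compares groups that the choice of genes did not set against each other, though in the same libraries. Of the 10 genes, Zfp263, Hydin and As3mt fell and Ushbp1 rose, which is 4 called, where 15.0% of tested genes were called, 7.12% lower and 7.86% higher. The other 6 had DKO means of 75.6% (Anxa1) to 92.8% (Sh3bgrl) of Tet1KO and missed the threshold. The 3 that fell were called in each of the 18 alternative settings. N1300T 49 and 81 differed in 2 of the 10, Maoa and Ushbp1, in opposite directions, where 0.362% of tested genes were called. With no filter on low counts Sh3bgrl was called too, which made it 3. The other 8 gave log2 fold changes from -3.41 (Zfp263, SE 2.23, adjusted p 0.78) to 1.05 (Sh3bgrl), and a p that misses the threshold does not show that the preparations are alike.

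**Figure D3:**
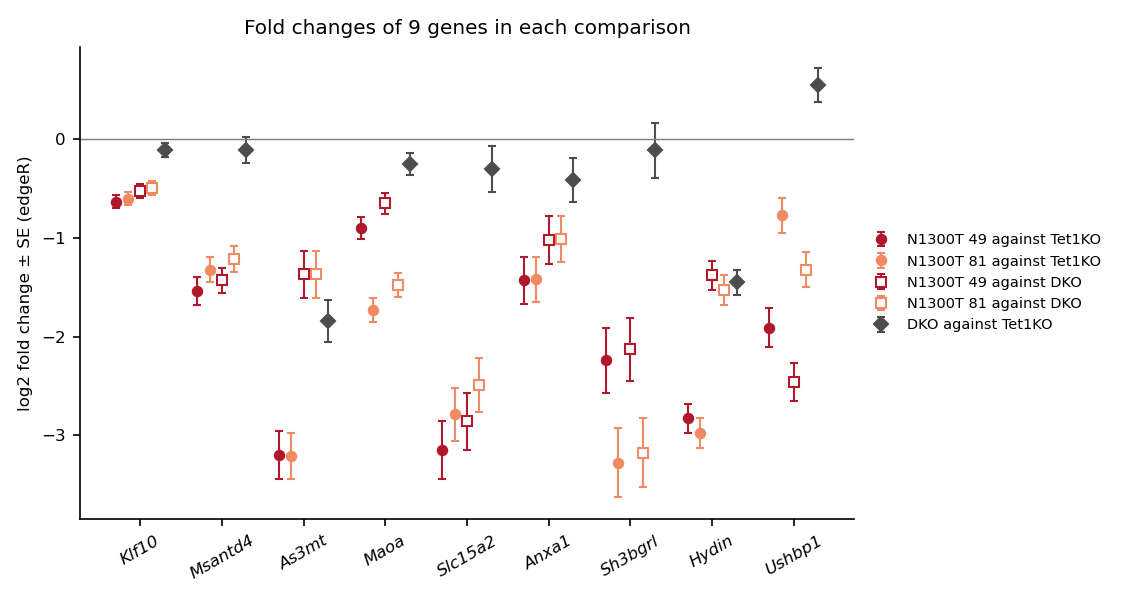
Log2 fold change (± SE, edgeR) of 9 genes in each N1300T preparation against Tet1KO and against DKO, which chose the genes, and in DKO against Tet1KO. Ushbp1 is the gene whose DKO point lies above 0, and Maoa and Ushbp1 show N1300T 49 and 81 apart. Zfp263 is left out because its N1300T 49 libraries hold 0 counts.

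Genes within 250 kb of the 10 were examined, since their own values did not enter the choice. Exceptions are possible for Gm21283, inside Hydin, and Gm35248, which overlaps Klf10, because each may share reads with the gene it overlaps. Of 61 tested neighbours, 8 were called lower and 1 higher in N1300T against Tet1KO, or 14.8%, beside 15.7% of all tested genes. Against DKO 1 was lower (Gm21283) and 0 higher, or 1.64%, beside 3.73% of all tested genes. In DKO against Tet1KO 13.1% were called, beside 15.0% of all tested genes. Without Tet1KO A or without Tet1KO C the count lower against Tet1KO was 5, without Tet1KO B the count higher was 3, and without N1300T 81 C the count lower against DKO was 2. In both directions together, the neighbours' share of calls against Tet1KO was thus near that of all genes. By direction the calls leaned to lower, with 8 of 61 lower beside 8.04% of all tested genes. Only 1 of 61 was higher, beside 7.69%. Of the 8 called lower, 5 were neighbours of Hydin and 2 of Ushbp1, both on chromosome 8, and 1 was a neighbour of Slc15a2. Genes of chromosome 8 as a whole had a median log2 fold change of -0.12 in that comparison. The part of this shift in the lean to lower was not tested.

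The neighbour called against DKO was Gm21283, a long non-coding RNA whose RefSeq span (chromosome 8, 110495366 to 110502356) lies inside that of Hydin. Gm21283 had 0.285, 0.244 and 0.348 CPM in N1300T 49 A, B and C and 0.237, 0.357 and 0.308 CPM in N1300T 81. Gm21283 had 3.63, 3.8 and 3.6 CPM in DKO and 5.67, 5.69 and 8.73 CPM in Tet1KO. It was low and even in N1300T and did not overlap the rest, with a log2 fold change of -3.62 ± 0.19 against DKO (adjusted p 1.51e-09) and -4.49 ± 0.18 against Tet1KO (adjusted p 4.04e-11). Its reads and those of Hydin cannot be told apart with certainty, because the genes overlap and the sources do not say whether counting used strand.

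With Gm21283, 5 of the 9 tested neighbours of Hydin were called lower in N1300T against Tet1KO (55.6%), beside 8.04% of all tested genes. The other 4 of the 5 were not called against DKO. This share was the largest around any of the named genes and is picked out after the values were seen. It counts Gm21283, which may share reads with Hydin. Il34, a cytokine that binds the CSF1 receptor, gave -0.84 ± 0.17 (adjusted p 0.00257), Vac14, a scaffold of lipid kinase Pikfyve, -0.24 ± 0.05 (adjusted p 0.00626), and Gm15894 -1.22 ± 0.31 (adjusted p 0.0131, lost without Tet1KO C). Cmtr2, a cap methyltransferase, gave -0.41 ± 0.11 (adjusted p 0.0173, lost without Tet1KO A or C). In DKO against Tet1KO 4 of the 9 were lower (44.4%), beside 7.12% of all tested genes. They were Il34 at -1.02 ± 0.20 (adjusted p 0.00243), Gm21283 at -0.87 ± 0.18 (0.00269), Cmtr2 at -0.44 ± 0.13 (0.0259) and Vac14 at -0.20 ± 0.06 (0.039). There the Cmtr2 call was lost without DKO A, DKO C, Tet1KO A or Tet1KO C, and that of Vac14 with library size alone or without any DKO library, N1300T 81 A, Tet1KO A or Tet1KO B. Genes of chromosome 8 as a whole had a median log2 fold change of -0.12 in N1300T against Tet1KO, -0.01 in N1300T against DKO and -0.10 in DKO against Tet1KO, and Tet1KO A had a median 0.09 above Tet1KO B and C there. The part of that shift in the values of Hydin, Ushbp1 and their neighbours was not tested.

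Ildr1, an immunoglobulin-like receptor of tricellular junctions, lies 23.4 kb from Slc15a2. Ildr1 had 13.3, 12.6 and 12.9 CPM in N1300T 49 A, B and C and 9.42, 10.9 and 8.37 CPM in N1300T 81. Ildr1 had 12.2, 11.7 and 11.9 CPM in DKO and 35.5, 37.3 and 36.1 CPM in Tet1KO. N1300T and DKO overlapped, both far below Tet1KO, whereas for Slc15a2 DKO overlapped Tet1KO. The log2 fold change in N1300T was -1.71 ± 0.07 against Tet1KO (adjusted p 5.78e-11) and -0.10 ± 0.08 against DKO (adjusted p 0.522). Eaf2, the nearest tested gene on the other side, gave -0.14 ± 0.33 against Tet1KO (adjusted p 0.825).

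Next to Ushbp1, Nr2f6, an orphan nuclear receptor 2.31 kb away, was higher in N1300T than in Tet1KO (0.46 ± 0.07, adjusted p 0.000174), while Babam1, at 0.331 kb, was not called (-0.02 ± 0.06, adjusted p 0.862). Farther off, Haus8 gave -0.26 ± 0.08 (adjusted p 0.0251, lost without N1300T 49 B or Tet1KO A) and Unc13a -0.33 ± 0.11 (adjusted p 0.0498, lost with library size alone, no filter and halved counts, and without any 1 library other than N1300T 49 B, 81 B or Tet1KO B). In DKO against Tet1KO these genes were called in the same directions. Nr2f6 gave 0.35 ± 0.08 (adjusted p 0.00525), Haus8 -0.33 ± 0.09 (0.0157, lost in 3 of 18 settings) and Unc13a -0.40 ± 0.13 (0.0449, lost in 8 of 18). None was called in N1300T against DKO. None of the 7 neighbours of Zfp263, 8 of As3mt, 3 of Msantd4, 3 of Klf10 or 2 of Sh3bgrl was called in either N1300T comparison, and Maoa and Anxa1 had no tested neighbour within 250 kb. Zfp263's neighbours ranged from -0.20 to 0.16 against Tet1KO and from -0.11 to 0.21 against DKO.

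**Figure D4:**
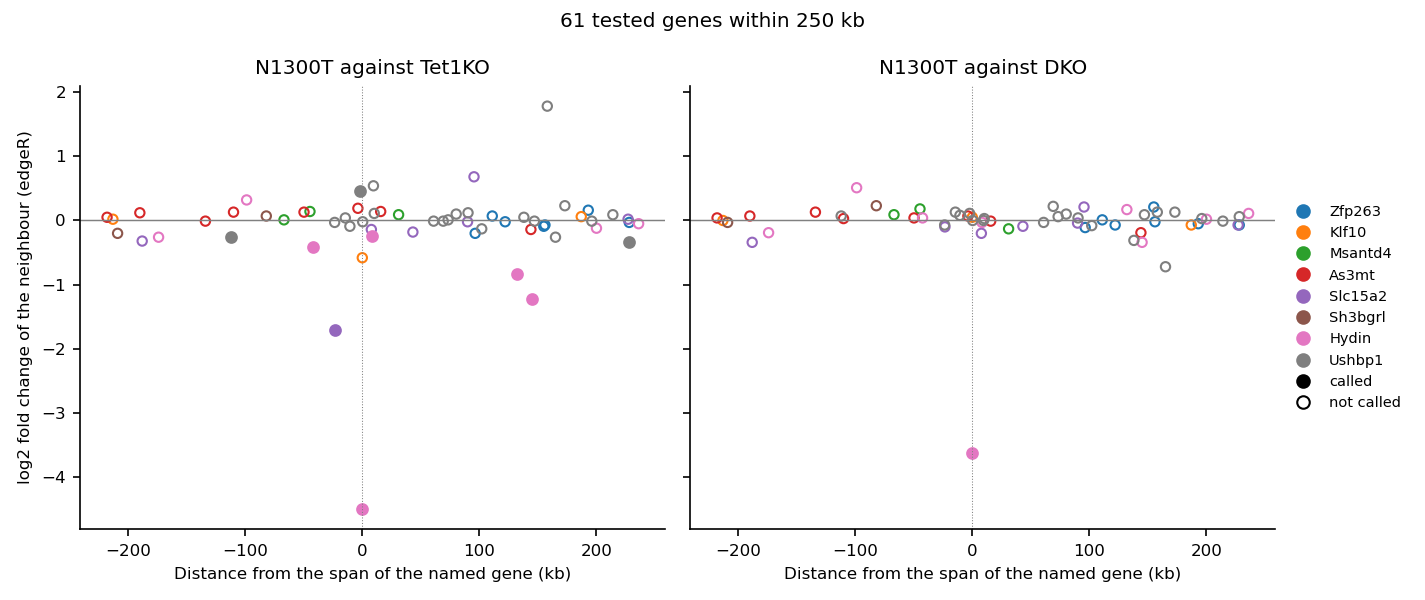
Log2 fold change (edgeR) of the 61 tested genes within 250 kb against their distance from the named gene in kb, in N1300T against Tet1KO (left panel) and against DKO (right panel), coloured by the named gene, with called genes filled. In the right panel 1 point is filled, Gm21283 inside Hydin at -3.62, and the rest lie between -0.72 and 0.51.

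Over all the lists of families and pathways, 136 genes other than the 10 were tested. Called lower and higher in N1300T were 15 and 10 against Tet1KO, or 18.4%, and 4 and 1 against DKO, or 3.68%, beside 15.7% and 3.73% of all tested genes. In DKO against Tet1KO 8 were lower and 12 higher, or 14.7%, beside 15.0% of all tested genes. Against Tet1KO the lower count was 9 without Tet1KO C and the higher count 6 without Tet1KO A. Against DKO the lower count was 2 without DKO A or B, 1 without DKO C, 9 without N1300T 49 C, 12 without 81 C and 7 without Tet1KO B or C.

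The tested genes whose levels over the 12 libraries were most like the mean of the 10 were ranked by Pearson's r of log2 CPM with the mean z-score, as a description. Eif2s3y, a translation initiation factor gene on the Y chromosome, came first (r 0.97), with 0.44 ± 0.34 CPM in N1300T, 38.5 ± 2.58 CPM in DKO and 65 ± 3.64 CPM in Tet1KO. Rcn2, a calcium-binding protein of the endoplasmic reticulum, followed (r 0.963), with 21.3 ± 0.704 CPM in N1300T, 25.4 ± 0.281 CPM in DKO and 28.8 ± 1.56 CPM in Tet1KO. Adgre5, Sh3d19, Tmem2, Twsg1, Atxn10 and Zdbf2 had r from 0.95 to 0.936. Zdbf2, a paternally expressed imprinted gene, had 103 ± 6.52 CPM in N1300T, 229.8 ± 8.99 CPM in DKO and 201 ± 12.6 CPM in Tet1KO. The size of the difference ranged widely among these genes, from nearly complete in Eif2s3y to small in Atxn10 (193 ± 4.55 CPM in N1300T, 211 ± 6.29 CPM in DKO and 229 ± 6.3 CPM in Tet1KO), and the r values share the same 12 libraries and the same group means. Within the 10, r of each gene with the mean of the other 9 ran from 0.734 (Ushbp1) to 0.967 (Klf10). The choice of genes, all low in the same N1300T libraries, sets this likeness, so nothing is read from it.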

How the data were processed

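The authors deposited raw counts per gene symbol for 12 libraries in 1 table. The build was mm10 and DESeq2 was among the tools, per the submitters' processing notes. Not given in the sources used here are the aligner, the annotation, the program that counted reads and its use of strand. Even counts prevailed (20282 values of 2 and 3467 of 3), as when both mates are counted, so counting error may be understated.

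The 10 genes and the lists of relatives were chosen with earlier results of these data known. All 12 libraries entered 1 fit in edgeR 4.0.16 (limma 3.58.1, R 4.3.3) with filterByExpr by group, TMM factors (0.979 to 1.02) and 2-sided quasi-likelihood tests, adjusted by Benjamini-Hochberg over the 16014 genes tested and called under 0.05. N1300T is the mean of preparations 49 and 81, weighted equally. The fit was tested on simulated data. Log2 CPM for likeness used a prior count of 2.

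Neighbours are tested genes within 250 kb, placed with RefSeq's table of GRCm38.p6, which placed 93.9% of the tested genes. Named were neighbours called in an N1300T comparison and the nearest genes, up to 3 called relatives per list by adjusted p, close paralogs, and the 8 genes most like the mean of the 10. Others are said to be chosen after their values were seen. Alternatives were RLE factors, library size alone, no filter, DESeq2 1.42.0, halved counts, a replicate block, each library left out in turn and a window of 500 kb. Overlapping genes may share reads, such as Hydin with Gm21283 and Klf10 with Gm35248. In annotation, small RNAs or pseudogenes lie within Hydin, Slc15a2 and Sh3bgrl. The protein-coding gene Gm6377 also overlaps Sh3bgrl, and the long non-coding RNA 1500015L24Rik overlaps Anxa1. Both Gm6377 and 1500015L24Rik had 0 counts in the 12 libraries.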

Additional observations from a re-analysis of the deposited data

Results flagged for a closer look

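N1300T 49 and 81 carry the same genotype label, and Maoa and Ushbp1 differed between them by the test of that difference. Maoa was higher in N1300T 49 than in N1300T 81 by 0.83 ± 0.12 on the log2 scale (edgeR adjusted p 0.00139), with 14 ± 1.28 CPM in 49 and 7.9 ± 1.5 CPM in 81, and was called in each of 18 alternative settings, with adjusted p up to 0.0159. Ushbp1 was lower in N1300T 49 than in N1300T 81, at -1.14 ± 0.20 (edgeR adjusted p 0.0111), with 1.95 ± 0.17 CPM in 49 and 4.31 ± 1.06 CPM in 81 (SD, n = 3 each). The Ushbp1 call was lost without N1300T 49 A, 49 C or 81 B, and adjusted p over its alternatives ran from 2.24e-09 to 0.116.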

How the results depend on the processing

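In N1300T against each genotype the log2 fold changes of the 10 genes were below 0 in all settings, a direction that the choice of genes fixes and that is no sign of stability. Genes called in N1300T against DKO were 597, and 1481 with no filter, 1073 by DESeq2, 1497 with the replicate block and 107 to 1053 leaving out 1 library. Between N1300T 49 and 81 they were 58, and 244, 108 and 105 in the same 3 settings and 39 to 80 leaving out 1 library. Leaving out 1 library gave 1388 (without Tet1KO A) to 2575 calls in N1300T against Tet1KO, 1386 to 2575 in DKO against Tet1KO, 3 to 4 of the 10 genes in DKO against Tet1KO and 1 to 2 of them between the preparations, where no filter gave 3, with Sh3bgrl added. For neighbours, in N1300T against Tet1KO, it gave 5 to 9 lower and 1 to 3 higher, and 2 were higher with the replicate block and within 500 kb. In N1300T against DKO it gave 1 to 2 neighbours lower and 0 higher. No filter gave 2 lower and 2 higher, and the replicate block 3 lower and 1 higher. For relatives, leaving out 1 library gave 9 to 16 lower and 6 to 12 higher in N1300T against Tet1KO, with 16 higher under the replicate block. In N1300T against DKO it gave 1 to 12 lower and 0 to 2 higher. There, RLE factors gave 0 higher, library size alone 9 lower and 0 higher, no filter 15 lower and 2 higher, DESeq2 10 lower and 3 higher, and the replicate block 16 lower and 2 higher. The cause of these shifts was not tested. The letters were not taken to pair the libraries, because that needed a correlation of deviations over 0.1 in every same-letter pair. It was over 0.1 in 7 of 18, none of the 9 with a DKO library and 7 of the 9 among N1300T 49, N1300T 81 and Tet1KO, against 0 of 36 pairs of other letters (highest 0.0445), and 9 of 12 libraries correlated best with their own letter. Signs turned in differences of the 10 genes that no setting called. Msantd4 in DKO against Tet1KO gave -0.19 to 0.02 leaving out 1 library, 0.02 without Tet1KO A. Between N1300T 49 and 81, As3mt gave -0.01 with library size alone and with the replicate block, -0.03 with halved counts and -0.29 to 0.29 leaving out 1 library, with -0.01, -0.29 and -0.24 without 49 B, 49 C and 81 C. Anxa1 gave 0.01 with the replicate block and -0.21 to 0.32 leaving out 1 library, with 0.13, 0.03 and 0.32 without 49 A, 49 B and 81 C, and Klf10 gave -0.05 to 0.00, with 0.00 without 81 A. Depth limits Zfp263 in N1300T 49, where 0 counts allow up to 0.0255 CPM over the group at a floor of 3 counts, and more if both mates were counted.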

Other observations

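Y-linked genes were counted unevenly in the N1300T preparations, and none belongs to the 10 genes. Ddx3y stood at 47.8 ± 2.42 CPM in N1300T 49, 0.0571 ± 0.0677 CPM in N1300T 81, 59.5 ± 1.55 CPM in DKO and 54.3 ± 8.3 CPM in Tet1KO (SD, n = 3 each). Uty stood at 28.1 ± 3.96 CPM in N1300T 49, 0.044 ± 0.0761 CPM in N1300T 81, 29.7 ± 3.35 CPM in DKO and 27.5 ± 1.72 CPM in Tet1KO. Eif2s3y was low in both preparations, at 0.73 ± 0.175 CPM in N1300T 49 and 0.15 ± 0.0704 CPM in N1300T 81, against 38.5 ± 2.58 CPM in DKO and 65 ± 3.64 CPM in Tet1KO. In N1300T 49, then, Eif2s3y was low while Ddx3y and Uty were counted at levels near those of DKO and Tet1KO, and in N1300T 81 all of them were near 0.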
